A study of Drosophila melanogaster with 2 samples.

Results

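The genes of Wingless signalling examined here are wg, fz, fz2, fz3, arr, Axn, Apc2, nkd, pan and Notum, 10 of the 13945 protein-coding genes on the 6 chromosome arms of Drosophila melanogaster. They were chosen by name as pathway genes, with earlier results of these data already known. Chromatin immunoprecipitation and sequencing (ChIP-seq) had mapped Invected, a homeodomain transcription factor and paralog of Engrailed, as a fusion to enhanced GFP (inv-eGFP). The material was 1 group of 2 biological replicates of whole embryos of the strain inv-GFP, aged 0 to 24 h, which carry an insertion targeting inv and share 1 donor label. No second genotype, treatment or age was compared, so every value below describes where peaks lay and how far the replicates shared them. The description in the labels gives an antibody against GFP, while their antibody field reads inv. Embryos of all these ages and all their tissues were mixed, so a peak does not say in which cells the protein was bound.

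Wingless, the founding Wnt protein of the fly, is a secreted ligand that Frizzled receptors and the co-receptor Arrow bind at the cell surface. Without ligand, a cytoplasmic destruction complex built on Axin and APC proteins marks Armadillo, the fly beta-catenin, for degradation, and with ligand Armadillo enters the nucleus and joins the DNA-binding protein Pangolin. In the embryonic epidermis, cells that express wg lie beside cells that express en and inv, and signals are exchanged between them.

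The deposited files were lists of peaks. The main list, pooled from both replicates, held 3393 peaks on the arms that passed a threshold on the irreproducible discovery rate (IDR), a measure of how poorly the rank of a peak repeats. Each replicate also had a thresholded list, with 2858 peaks on the arms in replicate 1 and 2129 in replicate 2, and a second pooled list, called conservative, held 2549. Both pooled lists ended at an IDR of 0.01, and the conservative one held some peaks that the main one lacked. Ranked lists, which also hold peaks that missed the threshold, had 136905 peaks on the arms when pooled, 110699 in replicate 1 and 101475 in replicate 2. A gene was said to hold a summit, the position of a peak's highest signal, when one fell inside it or no more than 2 kb away. The signal value is the authors' own value for each peak, on a scale that is not stated, and serves here to rank peaks within 1 list. Read counts were not analysed here, so depth is unknown.

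In the main list 8 of the 10 genes held a summit, against 37.7% of all protein-coding genes. The exceptions were wg, the ligand, and Notum, a secreted enzyme that inactivates it. The 8 genes had 13 summits in all, with signals from 53.4 to 650 and a median of 88.3, while the median of all 3393 peaks was 132. The genes are long, with a median of 21.9 kb against 2.17 kb for all genes, and of the 4204 genes of 4 kb or longer, a limit set after the lengths of the 10 genes were seen, 49.0% held a summit. That limit lies just under the shortest of the 10, Apc2 at 4.3 kb, so it does not match the longer ones in length. At 4 genes, fz3, pan, Axn and Apc2, the strongest peak overlapped a thresholded peak of both replicates. The matching share over all genes with a summit was not computed, and of all 3393 main peaks 50.5% were shared in this way. The summits at fz3 and pan lay at the start of the gene itself, and those at Axn and Apc2 lay nearest the start of a neighbour.

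The DNA under the 5 peaks that both replicates shared, and under the peak at fz as a contrast, is shown from the RefSeq copy of the Release 6 genome (dm6 coordinates). Each line reads 5′ to 3′ on the strand of the gene whose transcription start site (TSS) was nearest, and holds bases within 100 bp of the summit that lie outside annotated UTRs. The fz3 line is the exception: its 30 bases span the words at the TSS and run into the transcript. Capitals mark the word TATCGA, the E-box word CAGCTG or the word GAGAGA, read on either strand, so that TCGATA is TATCGA on the opposite strand, and TATCGATA holds an overlapping match on each strand. The lines stand for chrX:769940-769969 on the plus strand, chr4:69195-69325 on the plus strand, chr3R:30022222-30022344, chr3R:30036871-30037002 and chr3R:24169563-24169681 on the minus strand, and chr3L:14274255-14274342 on the plus strand.
fz3: aTATCGATAcctggctgctcTATCGATAaa
pan: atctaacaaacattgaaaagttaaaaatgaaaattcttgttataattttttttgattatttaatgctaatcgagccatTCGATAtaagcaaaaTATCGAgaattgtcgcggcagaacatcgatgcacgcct
Axn, at Mgat2: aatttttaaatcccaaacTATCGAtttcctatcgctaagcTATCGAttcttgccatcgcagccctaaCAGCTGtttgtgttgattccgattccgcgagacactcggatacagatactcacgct
Axn, at ZIPIC: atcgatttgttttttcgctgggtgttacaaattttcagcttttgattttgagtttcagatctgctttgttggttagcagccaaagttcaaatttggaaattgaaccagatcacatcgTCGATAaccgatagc
Apc2, at CG5510: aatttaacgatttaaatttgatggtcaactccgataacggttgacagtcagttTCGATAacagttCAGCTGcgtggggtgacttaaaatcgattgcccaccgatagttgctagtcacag
fz: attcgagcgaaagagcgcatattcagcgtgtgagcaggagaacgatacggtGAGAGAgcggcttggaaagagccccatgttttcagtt

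Each of the 5 windows under shared peaks held TATCGA, a word contained in the DNA replication-related element of many housekeeping promoters, within 50 bp of the summit on one strand or the other. It lay within 50 bp of 39.0% of the 3393 main summits and of 44.0% of the 2912 summits within 1 kb of a TSS. Of the 13 summits at the Wingless genes 6 had it, the sixth being the summit of fz3 that lay beside tw. Among all main peaks shared by both replicates 56.4% had the word, and among the others 21.3%, and at the Wingless genes the counts were 5 of 5 and 1 of 8. At fz3 there were 4 overlapping matches, and the longer form TATCGATA stood there in 2 copies. That form, looked for after the windows at these genes had been seen, lay within 50 bp of 17.6% of main summits and of 2 of these 13, namely the start of fz3 and its summit beside tw.

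The other words looked for were less frequent at these genes. TAATTA, the core site of Engrailed-class homeodomains, lay within 50 bp of none of the 13 summits and of 4.98% of all main summits. CTTTGA, read on the opposite strand as TCAAAG and part of the site that TCF proteins such as Pangolin bind, was found at 1 of the 13, the summit of fz3 beside tw, and at 4.24% of all. The E-box word CAGCTG lay at 2 of the 13, the summits nearest Mgat2 and CG5510, and at 7.40% of all. GAGAGA, the word bound by GAGA factor, lay at 1 of the 13, the summit at fz, and at 3.21% of all. A missing word says only that these letters were not in the window.

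**Figure D1:**
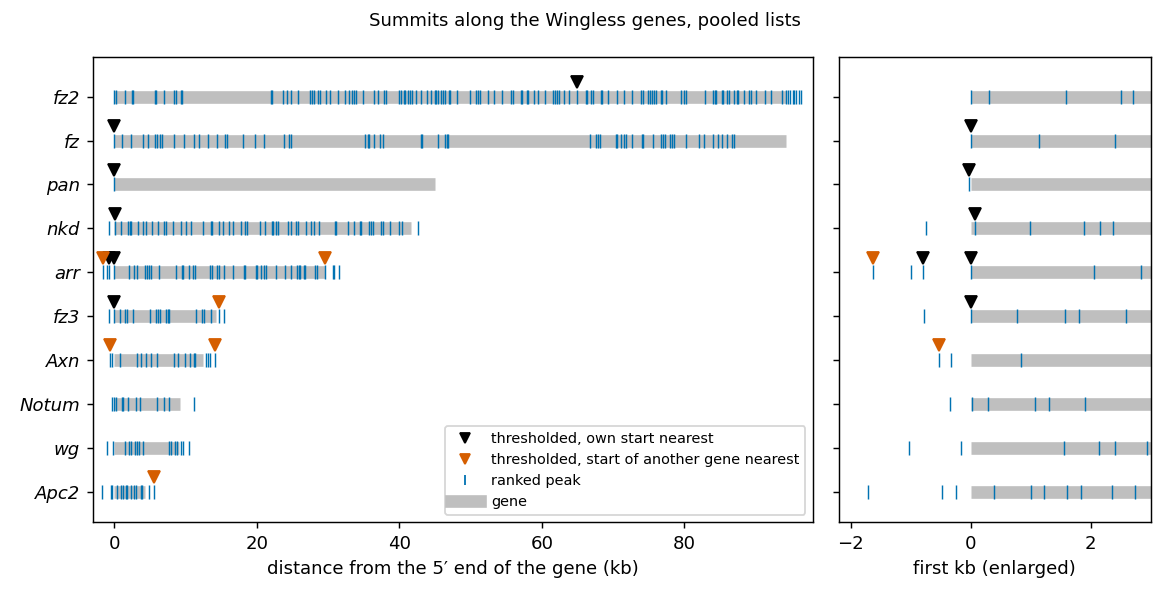
Summits along the 10 genes, drawn from the 5′ end of each gene in kb, with the first kb enlarged at right. Grey bars are the genes, blue ticks the peaks of the pooled ranked list and triangles the 13 summits of the main list, black where the gene's own start was the nearest and orange where another gene's was. Triangles stand at the start of fz, pan, nkd, arr and fz3 and inside fz2, none stands at wg or Notum, and the 1 blue tick of pan lies just upstream of the gene.

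The ligand gene wg (FBgn0284084, chr2L:7307159-7316265, plus strand, 9.11 kb) held no summit in any of the 4 thresholded lists. In the ranked lists 16 pooled peaks, 12 of replicate 1 and 18 of replicate 2 had their summits there. The most reproducible of the pooled ones, in an intron 3227 bp from the TSS of wg, had a signal of 22.2 and an IDR of 0.247, far above the 0.01 at which the thresholded lists end. Of all protein-coding genes 61.9% had a pooled ranked peak at least as reproducible. The best peak of replicate 1 lay 179 bp upstream of the TSS of wg, with a signal of 34.4 and an IDR of 0.0864. In replicate 2 the best lay in an intron 3440 bp from the TSS, with a signal of 13.7 and an IDR of 0.0605. The shares of all genes with a peak at least as reproducible were 43.2% in replicate 1 and 31.9% in replicate 2. The replicates thus had their best peaks at different places, one upstream of the gene and one inside it, and neither passed the threshold. A further peak of replicate 1, in an intron with an IDR of 0.478, overlapped the best one of replicate 2. In the conservative ranked list the best peak lay 1349 bp past the 3′ end of wg, with a signal of 62.2 and an IDR of 0.238.

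Both Frizzled genes that encode receptors for Wingless, fz and fz2, held 1 main summit each. At fz (FBgn0001085, chr3L:14274343-14368639, plus strand, 94.3 kb) it lay at 14274355 in the 5′ UTR, 12 bp downstream of the TSS, with a signal of 93.0 that ranked 2262 of 3393. The same peak stood in the conservative list. Replicate 1 had its summit at the same base, with rank 2487 of 2858 by signal and an IDR of 0.0066, which passed the threshold. In replicate 2 the overlapping ranked peak had a signal of 31.7 and an IDR of 0.892, so only 1 of the replicates listed it past the threshold. The gene spans 94.3 kb and held 63 pooled ranked summits, 0.641 per kb, where genes of 4 kb or longer had a median of 1.23 and a 5th percentile of 0.466.

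The summit at fz2 (FBgn0016797, chr3L:19140975-19235373, minus strand, 94.4 kb) was not at the 5′ end of the gene but 64.9 kb inside it, at 19170437, 211 bp downstream of one of its 3 TSSs. Its signal was 79.5, rank 2631, and the conservative list also held it. No replicate listed it past the threshold. In replicate 1 the overlapping ranked peak had a signal of 41.4 and an IDR of 0.15, and in replicate 2 one of 40.6 and an IDR of 0.0164. The fz2 gene held 128 pooled ranked summits, the highest number among the 10 genes, or 1.3 per kb, close to the median of long genes.

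The gene fz3 (FBgn0027343, chrX:769945-784222, plus strand, 14.3 kb), which encodes a further Frizzled protein and is itself described as a Wingless target, held the highest signal of the receptor genes. Its main summit at 769958 lay 13 bp downstream of the TSS, between the 2 copies of TATCGATA shown above and next to the second. The signal was 242, rank 984, and the peak was 189 bp wide, while 68.2% of main peaks had the commonest width of 424 bp. Replicate 1 listed it with a signal of 139, rank 1131 of 2858, and replicate 2 with 106, rank 752 of 2129. The IDR was 7.78e-05 in replicate 1 and 3.92e-05 in replicate 2, and the replicate summits lay 28 and 36 bp from the pooled one. Both replicates thus listed this promoter, and so did the conservative list. A weaker main summit of 53.4, rank 3173, lay 474 bp past the 3′ end of fz3 and 50 bp upstream of the TSS of tw, which encodes a protein O-mannosyltransferase. That one was in the thresholded list of neither replicate. In replicate 1 its IDR of 0.0106 only just missed the limit, and in replicate 2 the IDR was 0.883.

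The co-receptor gene arr (FBgn0000119, chr2R:13453640-13483229, minus strand, 29.6 kb), the fly homolog of LRP5 and LRP6, had 4 main summits, more than any of the other 9 genes. They were all weak, with signals of 88.3, 75.9, 75.9 and 68.3 that ranked between 2375 and 2948 of 3393. The first, at 13453611, lay 29 bp past the 3′ end of arr, 3025 bp from the nearest TSS, that of Golgin97, and was the 1 of the 13 summits more than 1 kb from any TSS. The second, at 13483228, lay 1 bp from the TSS of arr itself. The third, at 13484018, lay 789 bp upstream of that TSS in a coding exon of the neighbour cbc, and the last, at 13484847, lay in a coding exon of cbc 544 bp from the TSS of cbc and 770 bp from that of cid, which encodes the centromeric histone H3 variant. The gene bbc also reached within 2 kb of that last summit.

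Each of these arr peaks overlapped a ranked peak of both replicates, but few passed a replicate's threshold. Only the peak at the TSS passed the threshold in replicate 1, with a signal of 62.5 and an IDR of 0.00202, while its IDR in replicate 2 was 0.454. Only the one past the 3′ end stood in the conservative list, and its IDR was 0.356 in replicate 1 and 0.42 in replicate 2. The third and the last had IDRs of 0.0257 and 0.0169 in replicate 1, and 0.814 and 0.667 in replicate 2. In replicate 2 no summit in arr or within 2 kb passed, and the lowest IDR of any ranked peak there was 0.416. The promoter of arr therefore rested on replicate 1 and the pooled list.

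Of the destruction complex, Axn encodes the scaffold Axin and Apc2 one of the APC proteins of the fly. Axn (FBgn0026597, chr3R:30022842-30035311, plus strand, 12.5 kb) had 2 main summits, both outside the gene. The stronger, at 30022320, had a signal of 268, rank 866, and a width of 243 bp. It lay 99 bp upstream of the TSS of Mgat2, an N-acetylglucosaminyltransferase gene on the minus strand, 328 bp from that of RpS28a and 522 bp upstream of the nearest TSS of Axn. It stood between Mgat2 and RpS28a, which share a strand, with Axn beyond them on the other, so the starts of 3 genes lay within 1 kb and the summit cannot be tied to 1 of them. Replicate 1 listed the peak with a signal of 171, rank 921, and replicate 2 with 114, rank 672. Their IDRs were 1.03e-05 and 4.5e-05, so this was among the peaks that both replicates shared.

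The other summit of Axn, at 30036926, lay 1615 bp past its 3′ end and 56 bp upstream of the TSS of ZIPIC, which encodes a zinc-finger protein of chromatin insulators. It had a signal of 83.8, rank 2500. Replicate 1 listed it with a signal of 61.8 and an IDR of 0.00148. In replicate 2 the interval was covered by 2 thresholded peaks near the bottom of that list by signal. Their signals were 31.6 and 21.4, ranks 1966 and 1981 of 2129, with IDRs of 0.00224 and 0.00223. Replicate 2 peaks that missed the threshold had higher signals at fz (31.7), fz2 (40.6) and past the 3′ end of arr (36.9). At the other unshared summits of these genes they were below 31.6, so sharing did not follow signal alone. The genes ocn, janB and janA also lay within 2 kb of this summit, which was shared by both replicates although its signal was under the median of the list.

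Apc2 (FBgn0026598, chr3R:24163966-24168264, plus strand, 4.3 kb) had the strongest peak of the 10 genes, far from its own start. The summit at 24169581 had a signal of 650, rank 192, above 94.3% of main peaks. It lay 1317 bp past the 3′ end of Apc2, 5615 bp from the TSS of Apc2 and 19 bp upstream of the TSS of CG5510 on the opposite strand. Replicate 1 gave it a signal of 437, rank 218, and replicate 2 one of 222, rank 153, and in both its IDR was 1e-05, the smallest listed. The summits of the replicates lay 3 and 4 bp from the pooled one. At the start of Apc2 itself the main list held nothing. The conservative list had a summit 471 bp upstream of that start, with a signal of 64.1 and a score of 853 (the lowest listed is 830), and it lay 50 bp downstream of the TSS of mRpS24, a mitochondrial ribosomal protein gene.

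The gene nkd (FBgn0002945, chr3L:19003741-19045449, minus strand, 41.7 kb) encodes Naked cuticle, which binds Dishevelled and dampens the Wingless signal. Its 1 main summit, at 19045366 in the 5′ UTR, lay 83 bp downstream of the TSS and had a signal of 94.0, rank 2248. Replicate 1 listed it with a signal of 70.3, rank 1939, and an IDR of 0.000712. In replicate 2 the overlapping ranked peak had a signal of 17.5 and an IDR of 0.886, and the conservative list did not hold it. The best peak of nkd in the conservative ranked list was another one, in an intron, with an IDR of 0.133. The promoter peak of nkd was thus carried by replicate 1 and the main list.

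The nuclear factor Pangolin, the TCF protein of the fly, is encoded by pan (FBgn0085432, chr4:69326-114270, plus strand, 44.9 kb). Its main summit at 69295 lay 31 bp upstream of the first of its 4 TSSs, with a signal of 196, rank 1222, and no other protein-coding gene lay within 2 kb. Replicate 1 listed it with a signal of 96.9, rank 1487, and replicate 2 with 104, rank 767. The IDR was 0.000171 in replicate 1 and 6.7e-05 in replicate 2, and the conservative list held the peak. Few other ranked summits were counted for pan. This was the only pooled ranked summit in pan or within 2 kb, 0.0204 per kb, and replicate 1 had 5 and replicate 2 had 3. The 64 genes of 4 kb or longer on chromosome 4 had a median of 0.243 pooled ranked summits per kb, against 1.23 on all arms, and 17 of them were at or below pan. What sets the low density on this chromosome was not tested.

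Notum (FBgn0044028, chr3L:16023480-16032752, plus strand, 9.27 kb), which encodes the secreted enzyme that removes the lipid of Wnt proteins and is itself a Wingless target, held no summit in any thresholded list. It came nearer to the threshold than wg in the pooled list, but in each replicate the best peak of wg had the lower IDR. The best pooled peak of Notum, in a coding exon at 16031129, had a signal of 57.5, a score of 747 and an IDR of 0.0158, and 40.2% of all genes had a peak at least as reproducible. Neither replicate had its best peak there. In replicate 1 it lay 282 bp upstream of the TSS of Notum with an IDR of 0.135, and in replicate 2 it lay 423 bp upstream with an IDR of 0.143. These upstream peaks of the replicates overlapped each other but did not pass in any list.

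**Figure D2:**
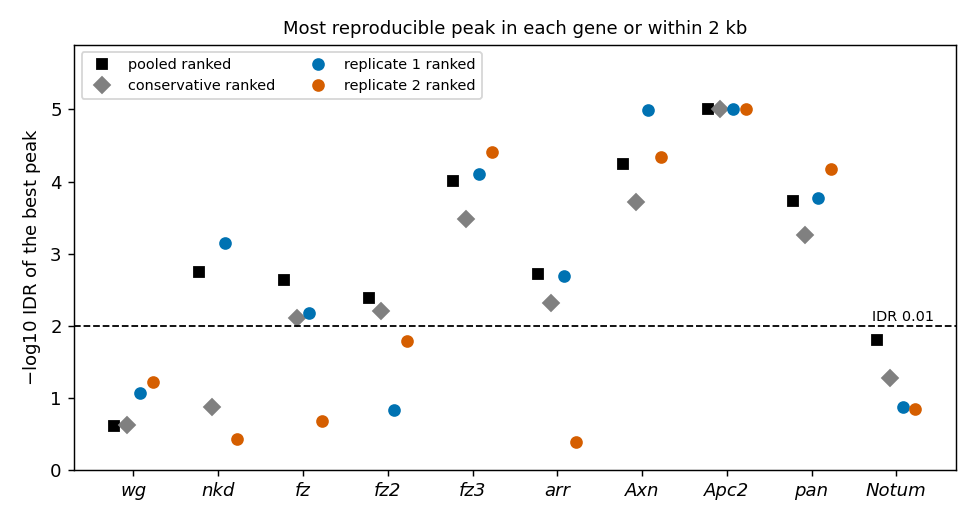
The most reproducible peak in each gene or within 2 kb, as −log10 IDR in the 4 ranked lists; the dashed line marks an IDR of 0.01. All 4 symbols lie above the line for fz3, Axn, Apc2 and pan, and none does for wg and Notum. For fz2 only both pooled lists pass, for fz and arr replicate 2 does not, and for nkd replicate 2 and the conservative ranked list do not.

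The 13 peaks were then set beside the whole main list, with the reserve that 13 peaks at 8 genes are few. Peaks of both replicates overlapped 5 of the 13 (38.5%) and 1714 of all 3393 (50.5%). Replicate 1 alone had 3 of the 13, replicate 2 alone had 0, and 5 overlapped a thresholded peak of neither. In the conservative list 8 of the 13 were found (61.5%), against 72.5% of all main peaks. Of the 13 summits 12 lay within 1 kb of a TSS (92.3%) and 9 within 100 bp (69.2%), while for all main summits the shares were 85.8% and 59.1%. The nearest TSS was that of the Wingless gene in 7 of the 13 (53.8%), and over all genes it was the gene's own in 43.2% of 7524 pairs of a gene and a summit. No test was made of these differences.

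**Figure D3:**
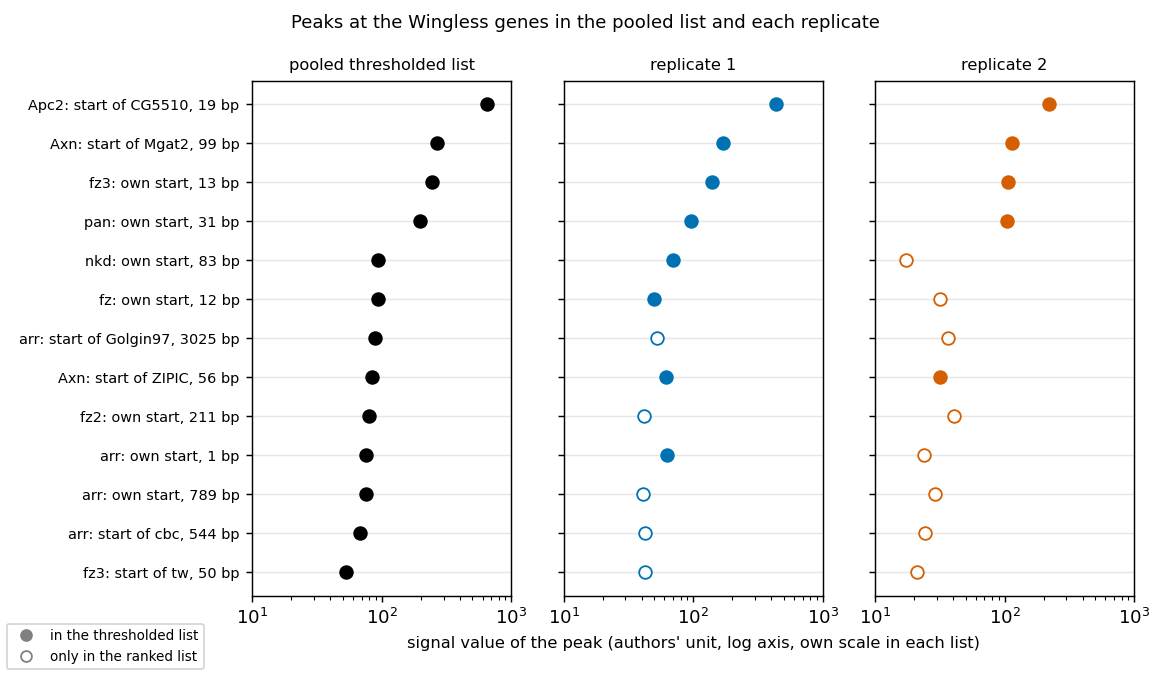
Signal values of the 13 main peaks in the pooled list (left) and of the best overlapping peak in replicate 1 (middle) and replicate 2 (right), on log axes in the authors' unit; the lists have their own scales, so panels are read separately. Filled circles are peaks of a thresholded list and open circles peaks of a ranked list only. The peaks at Apc2, Axn (Mgat2), fz3, pan and Axn (ZIPIC) are filled in all 3 panels, and those at nkd, fz and the start of arr are filled in replicate 1 but not in replicate 2.

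How many of the 10 genes held a summit depended on the list and on the rule. It was 7 in the conservative list, where 32.1% of all genes held one, 7 in replicate 1 alone (34.9% of all genes) and 4 in replicate 2 alone (27.0%). The 4 of replicate 2 were fz3, Axn, Apc2 and pan, and the same 4 remained in the upper 50% of the main list by signal (25.3% of all genes). When a summit had to lie at most 1 kb from a TSS of the same gene, Apc2 dropped out and 7 were left, against 27.2% of all genes. When each summit was given only to the gene with the nearest TSS, 6 of the 10 genes held one, against 21.2% of all, and Axn dropped out as well. The 4 strongest of the 13 peaks, at Apc2, Axn, fz3 and pan, were all shared by both replicates. The share among all main peaks of similar signal was not computed, and over the whole main list it was 50.5%. At Apc2 and Axn the nearest start belonged to another gene.

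**Figure D4:**
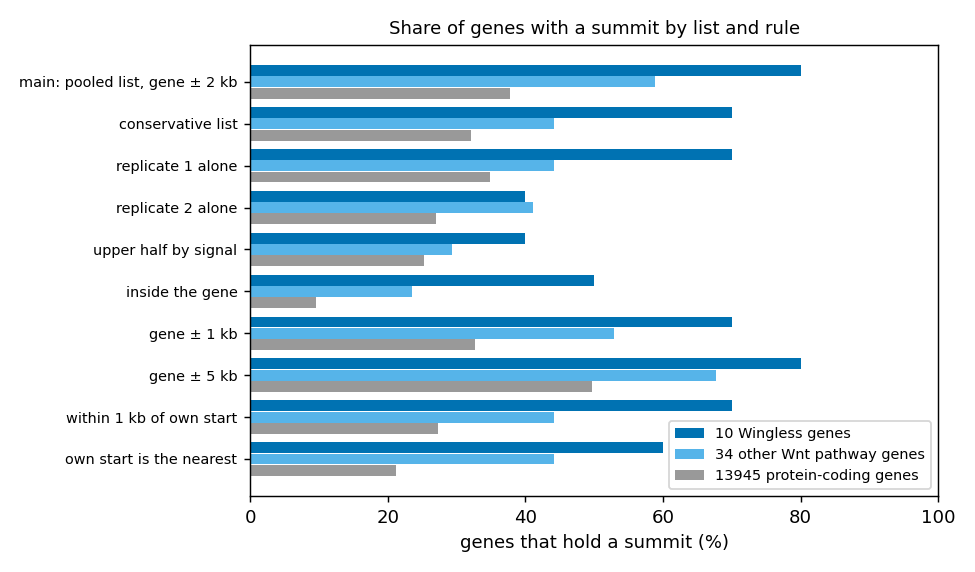
Share of genes that hold a summit (%), by list and rule, for the 10 Wingless genes (dark blue), 34 other Wnt pathway genes (light blue) and all 13945 protein-coding genes (grey). The 10 genes run from 4 of 10 in replicate 2 alone and in the upper part of the list by signal to 8 of 10 in the main list.

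The rest of the pathway was described with a list of 44 Wnt pathway genes that includes these 10. Of the 44, 28 held a main summit (63.6%), and of the 34 others 20 did (58.8%), beside the 37.7% of all genes. The median length of the 44 is 12.4 kb, and 49.0% of genes of 4 kb or longer held one. Summits within 1 kb of the gene's own TSS were found at 15 of the 34, and at 27.2% of all genes. The median of the strongest signals was 145 for the 8 Wingless genes, 137 for the 28 of the list and 205 for all genes with a summit.

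Of the 7 ligand genes 2 held a summit and of the 2 secretion genes 0, and none lay within 1 kb of the gene's own start. Besides wg, the genes without one were Wnt2, Wnt6, Wnt10 and wntD, with por and wls, which acylate and export Wnt proteins. The summit of Wnt4, with a signal of 73.2, lay nearest CG13786 at 2085 bp, and that of Wnt5, at 91.4, lay 10 bp from the TSS of Pgant7. Of the 10 receptor and co-receptor genes 7 held a summit, 6 of them at their own start. Here fz4 had a signal of 229 at its TSS, in both replicates, and drl, a Ryk-type receptor, 70.1 at 101 bp, in replicate 1 only.

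Of the 5 proteoglycan and other extracellular genes 3 held a summit. Here dlp, a glypican that binds Wingless, had 331 at 99 bp in both replicates, and sfl, an enzyme of heparan sulphate synthesis, had 351 at 82 bp in replicate 1 only. Beside nkd, the other cytoplasmic gene of the list was dsh, which encodes the Dishevelled to which Naked cuticle binds. It had 102 at 135 bp in replicate 1 only.

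Of the 8 destruction complex genes 7 held a summit, 6 of them near their own start. CkIalpha, a kinase that phosphorylates Armadillo, had the highest signal there, 899 at 25 bp from its TSS. The other APC gene, Apc, had 177 at 87 bp, and slmb, which encodes the F-box protein that recognises phosphorylated Armadillo, had 150 at 32 bp. These 3 were shared by both replicates. The kinase gene sgg had 121 at 433 bp and the tankyrase gene Tnks 150 at 506 bp, nearest RASSF8, each in replicate 1 only.

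Of the 10 nuclear genes 7 held a summit. The co-repressor gene gro had 249 at 19 bp, hyx, a subunit of the Paf1 complex, 202 at 73 bp, and pygo, a co-activator of Armadillo, 124 at 133 bp though nearest rod, each in both replicates. The acetyltransferase gene nej had 95.9 at 409 bp in neither replicate, and ebd1, a co-factor of Armadillo, had 68.0 at 785 bp in replicate 2 only. Armadillo's own gene, arm, had its 1 summit nearest trr, 9430 bp from its TSS, with a signal of 164.

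Genes described as Wingless targets in the fly held a summit in 8 of 15 cases (53.3%), beside 37.7% of all genes and 49.0% of genes of 4 kb or longer. The median length of the 15 is 14.3 kb. Of the Wingless genes that are also targets, fz3, fz2 and nkd held one near a TSS of their own, and wg and Notum held none. Of the other 10 targets, en had 140 at 24 bp in both replicates and Ubx 113 at 43 bp in neither. The summits counted for hth and hh and the stronger of the 2 for lab lay 8067, 13914 and 5958 bp from their own TSS. Dll, vg, sens, slp1 and eve held none.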

How the data were processed

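ChIP-seq of inv-eGFP in 2 biological replicates of whole embryos (0 to 24 h) gave the peak lists. Chromatin was sonicated to 200 to 800 bp, per the labels. Per the file headers deposited with each sample, coordinates are dm6 and pooled lists came from the alignments of both replicates and a control. The aligner and the peak caller were not given in the sources used here. The authors deposited a signal value for each peak, on an unstated scale. The score deposited by the authors rescales the IDR to at most 1000, and the lowest in every thresholded list was 830, an IDR of 0.01. On the arms the pooled ranked list held 3499 peaks at or above that score and the thresholded one 3393, so such a score in the ranked list did not always mean a place in the thresholded one. The ranked lists the authors deposited also give −log10 of the global IDR. How the IDR was obtained within a single replicate is not given in the sources used here. Control libraries were not analysed here.

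Peaks on the 6 arms were used. Genes, UTRs and TSSs of protein-coding genes came from Ensembl release 115 and sequence from the RefSeq copy of Release 6. Gene symbols of every list matched, 2 of them (wntD and Swim) through another spelling. Peaks overlapping by at least 1 bp were called shared. Words were searched on both strands within 50 bp of summits. Python 3.11.15, numpy 2.4.6, pandas 2.3.3 and matplotlib 3.10.9 were used, and counting was tested on simulated data.

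The 10 genes, the wider lists, the words and the alternatives were chosen with earlier results of these data known. All 10 genes are named, with the gene owning the TSS nearest each summit and every gene within 2 kb of one, and of the wider lists every gene with a summit within 1 kb of its own TSS and every ligand. Other genes named from those lists were chosen after their values were seen. With 1 group and peaks chosen by the authors' threshold, no test was made. The labels call the samples biological replicates. Alternatives were the conservative list, each replicate alone, the upper 50% of peaks by signal, windows of 0, 1 and 5 kb, 2 other rules of assignment and 3 other rules of sharing.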

Additional observations from a re-analysis of the deposited data

How the results depend on the processing

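The count of 8 Wingless genes with a summit was 4 to 7 when a replicate was left out, 4 among the 50% of peaks with the higher signals and 5 with summits inside the gene only. It was within 1.5 times the main count in the other alternatives. The 28 genes of the wider pathway list became 18 to 22 without a replicate, 14 in the upper 50% and 13 inside the gene. Of all protein-coding genes 27.0% to 34.9% held a summit without a replicate and 25.3% in the upper 50%. Inside the gene 9.54% did, against 37.7% in the main setting. The value without replicate 1 was 4 for the Wingless genes and 18 for the list. The strongest peak was shared by both replicates at 4 of the 8 genes, also with summits within 100 bp, with an overlap of 50% of the shorter peak and with ranked lists at or above the lowest listed score. No matching share over all genes was computed, and 50.5% of all main peaks were shared. The strongest signal at arr was 75.9 inside the gene and 127 within 5 kb, and that at Axn 1250 within 5 kb. The causes were not tested. No paired analysis was possible because the samples form 1 group. Depth is unknown, so its part in the difference between the replicates could not be examined.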

Other observations

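Summits between 2 and 5 kb from these genes lay at further neighbours. Past the 3′ end of Axn, at 4393 bp, the main list had a summit of 1250, rank 29 of 3393, 15 bp upstream of the TSS of Sry-alpha. Upstream of Apc2, at 2377 bp, a summit of 187 lay 91 bp from the TSS of Myo95E. Past the 3′ end of arr, at 3086 bp, a summit of 127 lay 32 bp from the TSS of Golgin97. A peak 4609 bp past Notum, with a signal of 135 and the highest score of 1000, stood in the conservative list but not in the main one.

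The base composition of the windows within 50 bp of the 13 summits ran from 33.7% G and C past the 3′ end of arr to 63.4% at its summit in the coding exon of cbc nearest the TSS of that gene. The median over all main summits was 41.6%, and the windows at pan and fz2 had 41.6% as well.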
